A study of Mus musculus with 6 samples.

Results

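The genes measured here encode the transferases of phase II drug and hormone metabolism, chosen by their mouse gene symbols: every protein-coding gene named as a glutathione S-transferase of the alpha, mu, pi, theta, kappa or omega class (Gsta, Gstm, Gstp, Gstt, Gstk, Gsto), as a UDP-glucuronosyltransferase of family 1a, 2a or 2b (Ugt1a, Ugt2a, Ugt2b), or as a cytosolic sulfotransferase (Sult). This gave 61 genes of the 21819 protein-coding genes and 52550 genes listed, 21 of them Gst genes, 19 Ugt genes and 21 Sult genes. RNA was sequenced from cells of embryonic liver in mice of the CD-1 strain that carry Sox9-GFP, a reporter that lights up cells with activity of the biliary transcription factor gene Sox9. Both groups carry this reporter, no treatment is named for either, and they differ in stage: 3 libraries (replicates A, B and C) came from E16.5 and 3 from E18.5 livers, where the sample labels write embryonic days 16 and 18. Each library was made from a pool of livers, from which blood-forming cells were first depleted with magnetic beads and GFP-positive cells were then sorted. The replicates are thus taken to be separate pools, and every p-value sets the difference between the stages against the spread between pools. A cell is selected by its GFP content, so a cell that expresses SOX9 without being biliary is selected too.

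Phase II enzymes join a polar group to a lipophilic molecule, which makes it soluble enough to leave the cell in bile or urine. Glutathione S-transferases use glutathione and act on electrophiles such as quinones and products of lipid peroxidation. UDP-glucuronosyltransferases of the endoplasmic reticulum transfer glucuronic acid from UDP-glucuronic acid to bilirubin, bile acids, steroids and phenols, and sulfotransferases transfer sulfate from the activated sulfate PAPS to phenols, steroids and bile acids. The adult hepatocyte is the main site of glucuronidation and sulfation, and many of these genes are known to be switched on around birth.

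Levels are given in TPM (a read count scaled to gene length and then to a fixed total of all genes), and reads recovered from the TPM came to between 13093937 and 26206374 per library, with every E18.5 library shallower than every E16.5 library. The labelled cell type, cholangiocytes, was checked against marker genes. Of 12 cholangiocyte markers, 9 were higher at E18.5 (median log2 fold change 1.57, range 0.33 to 3.19), and the secreted glycoprotein gene Spp1 rose from 1171 to 9587 TPM. All 11 hepatoblast markers were above 0 in all 6 libraries as well. Their summed level was 18.1%, 19.0% and 23.0% of all TPM in E16.5 replicates A, B and C and 8.635%, 4.20% and 10.4% in E18.5 replicates A, B and C, with 7 of them lower at E18.5 and a median log2 fold change of -1.33. Transcripts of the megakaryocyte list fell too (8 of 8 genes, median -4.32), while the medians of the erythroid and endothelial lists were -0.14 and 0.13 with no gene past the threshold used below. Mesenchymal markers were above 0 in log2 fold change in 8 of 8 genes (median 1.08, 2 higher past the threshold), and leukocyte markers had a median of 0.67 over 6 genes tested, 2 of them higher. Over all genes tested the median was 0.42, with 26.0% higher and 5.22% lower past the threshold. The 2 of 8 mesenchymal genes called are near that share. Pancreatic acinar markers had a median of -2.18 over 5 genes tested, 2 of them lower, and their sum ranged from 77.6 TPM to 2406 TPM (replicate A) within E16.5, against 14.4 to 52.6 TPM at E18.5. Markers of more than 1 cell type were thus present, and in bulk samples such as these fewer cells of a type and less RNA per cell cannot be told apart.

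More conjugation genes were lower at E18.5 than were higher. The stages were compared with limma on log2(TPM + 1), with Benjamini-Hochberg adjustment over the 22452 genes whose mean reached 1 TPM, and 31.2% of those genes had an adjusted p under 0.05. Of the 61 conjugation genes, 39 passed this filter on low values and 22 did not. At an adjusted p under 0.05, 14 of the 39 were lower at E18.5, where 5.22% of all genes tested were lower. In the other direction 4 of the 39 were higher, where 26.0% of all genes tested were higher. The median log2 fold change was -0.66 over the 39 genes and 0.42 over all genes tested, and 32 of the 39 lay below the latter. Without regard to the test, the 3 values of one stage lay outside those of the other for 20 genes that were lower at E18.5 and 5 that were higher, against 8.30% and 45.0% of all genes tested. Such a separation is as far as an exact permutation test on a single gene can go (two-sided p = 0.1, the smallest that 3 libraries against 3 allow). The shift of all genes toward higher TPM was removed by median-of-ratios scaling between libraries (median 0.02), under which 16 of the 39 genes were lower and 2 higher, against 10.4% and 6.80% of all genes tested. Of those 18 calls, 16 were also made without that scaling, and Gsto1 (-0.84, adjusted p = 0.0332) and Ugt2b35 (-0.65, adjusted p = 0.0386) were gained.

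**Figure D1:**
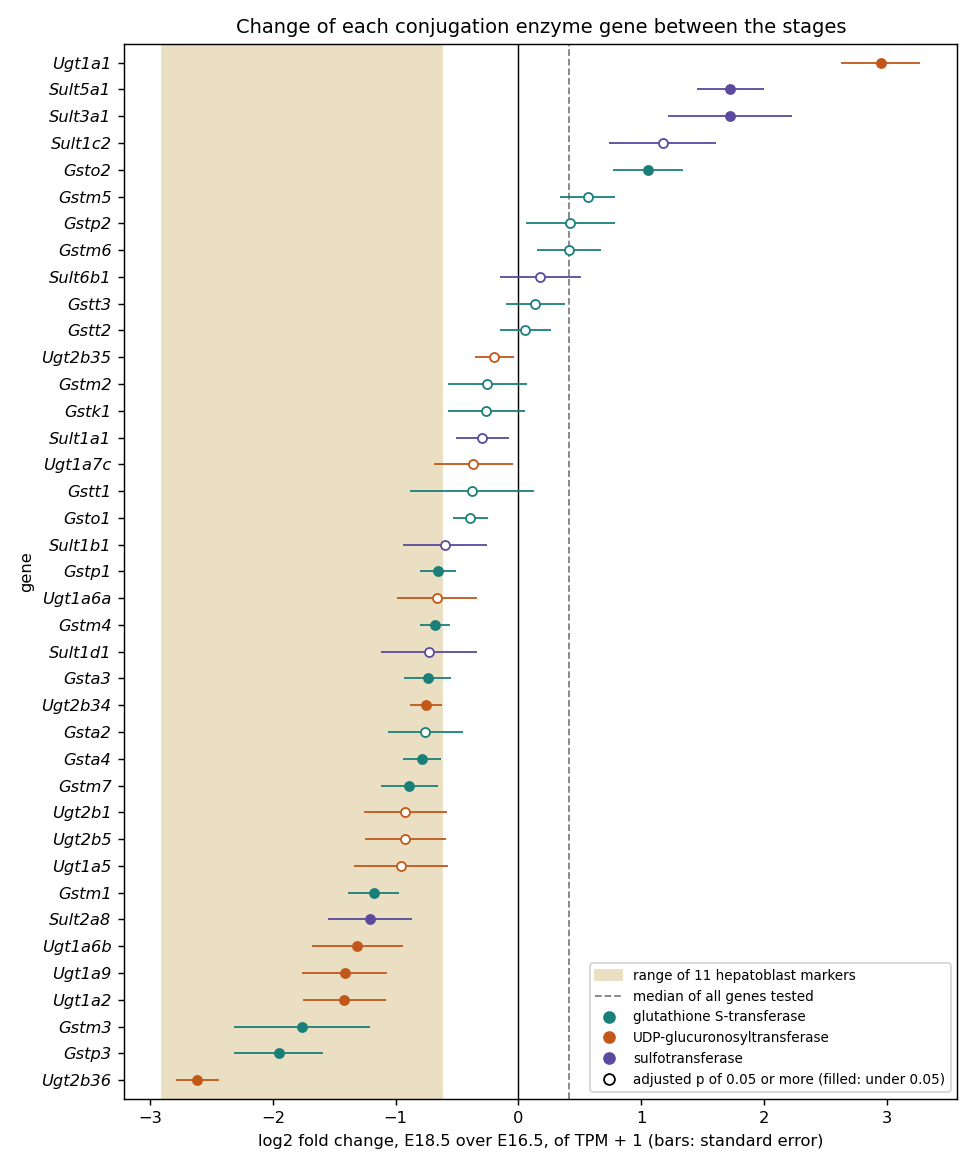
Log2 fold change (E18.5 over E16.5, of TPM + 1) of the 39 conjugation enzyme genes tested, ordered by size, with the standard error as a bar and filled points for an adjusted p under 0.05. All 14 genes that were lower lie inside the shaded range of the 11 hepatoblast markers (-2.90 to -0.62), which also holds 79.3% of all genes called lower, and Ugt1a1 lies farthest to the right at 2.95.

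Summed over all 61 genes, conjugation transcripts made up 3212, 3491 and 3671 TPM in E16.5 replicates A, B and C and 2319, 1785 and 2213 TPM in E18.5 replicates A, B and C. The Gst genes carried the greater part, with 2299 ± 157 TPM (SD, n = 3) at E16.5, against 1335 ± 160 TPM at E18.5. The Ugt genes had 740 ± 29.0 TPM and 421 ± 60.9 TPM, and the Sult genes 419 ± 70.2 TPM and 351 ± 87.2 TPM. The sums of the Gst and of the Ugt genes did not overlap between the stages, whereas those of the Sult genes did. A few genes carried most of each sum. Gstp1 held 36.0% to 39.0% of the Gst sum at E16.5, and 36.6% to 46.0% by E18.5, Ugt2b34 held 47.6% to 52.9% and 47.8% to 57.9% of the Ugt sum, and Sult1a1 held 85.4% to 89.5% and 83.7% to 87.8% of the Sult sum. These shares overlap between the stages, and each of these genes held the largest share of its family in every library.

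**Figure D2:**
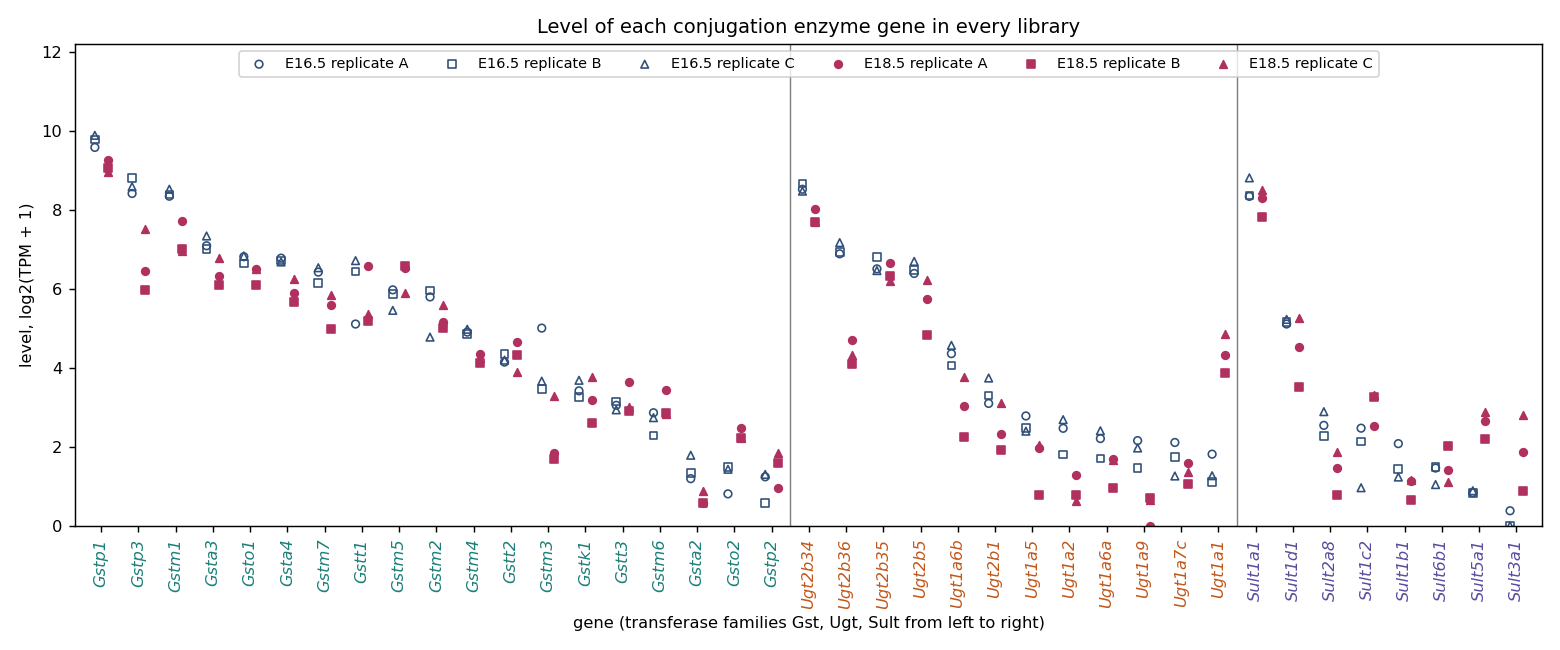
Level of the 39 genes tested in each library, as log2(TPM + 1), with open symbols for E16.5 and filled symbols for E18.5, and Gst, Ugt and Sult genes separated by vertical lines. Gstp1 has the highest values of all (493.5 to 946 TPM), and Ugt2b36 and Ugt1a1 show the widest gaps between the stages.

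The pi class glutathione S-transferases, which conjugate a wide range of electrophiles, were the most abundant conjugation transcripts. Their 3 genes lie in tandem on chromosome 19 (GRCm38), all on the reverse strand: Gstp1 (ENSMUSG00000060803.5) at chr19:4035407-4037985, Gstp2 at chr19:4040285-4046023 and Gstp3 (ENSMUSG00000058216.12) at chr19:4057477-4059569. The stretches before the start sites of Gstp1 and Gstp3 are shown because these neighbours are both abundant and changed by different amounts. They are 250 bases each from RefSeq on GRCm38.p6, read on the reverse strand, Gstp1 from chr19:4037913-4038162 and Gstp3 from chr19:4059448-4059697. The RefSeq starts used for them lie inside the GENCODE genes given above, so that 73 bases of the Gstp1 stretch and 122 of the Gstp3 stretch belong to those genes. Capitals mark TGAGTCA, the binding motif of AP-1 factors, which begins 74 bases before the RefSeq start site of Gstp1. All of this match except its first base thus lies inside the GENCODE gene.
Gstp1: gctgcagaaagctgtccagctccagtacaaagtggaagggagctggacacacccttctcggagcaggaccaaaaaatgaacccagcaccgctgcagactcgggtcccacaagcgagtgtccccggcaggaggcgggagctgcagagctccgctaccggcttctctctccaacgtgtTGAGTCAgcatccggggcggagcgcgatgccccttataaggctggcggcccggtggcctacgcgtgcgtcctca
Gstp3: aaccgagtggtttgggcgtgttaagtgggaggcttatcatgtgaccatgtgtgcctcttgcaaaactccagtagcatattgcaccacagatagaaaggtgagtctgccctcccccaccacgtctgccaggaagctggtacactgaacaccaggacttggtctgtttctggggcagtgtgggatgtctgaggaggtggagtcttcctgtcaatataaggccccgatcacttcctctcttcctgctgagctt
No copy of TGAGTCA was found in the 250 bases of Gstp3.

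Gstp1 had 764.9, 880.5 and 946 TPM in E16.5 replicates A, B and C, against 612.4, 537.3 and 493.5 TPM at E18.5, which placed it above 99.7% of protein-coding genes at E16.5 and above 99.6% at E18.5. Every E18.5 library lay below every E16.5 library, and its log2 fold change was -0.66 (adjusted p = 0.0196, standard error 0.14). Gstp3 had 340.3, 445.9 and 383.4 TPM at E16.5, against 86.6, 62.1 and 181 TPM at E18.5. Its change was larger (-1.95, standard error 0.36, adjusted p = 0.0139), the stages again did not overlap, and E18.5 replicate C held more of it than the other E18.5 libraries. Per library, the ratio of Gstp1 to Gstp3 was 2.25, 1.97 and 2.47 at E16.5 and 7.07, 8.65 and 2.72 at E18.5, so it was higher in each E18.5 library. Gstp2 was low throughout, with 1.11 ± 0.53 TPM (SD, n = 3) at E16.5, against 1.85 ± 0.82 TPM at E18.5, and did not pass the test (adjusted p = 0.383). The coding sequences of Gstp1 and Gstp2 are 98.1% identical, and 51.0% of the 50-base stretches of Gstp1 also occur in Gstp2. A read from those stretches cannot be placed in 1 of these genes, so the levels of both are uncertain. Gstp3 shares no 50-base stretch with another gene and is 72.7% identical to Gstp1.

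The mu class, whose enzymes act on electrophiles with an aromatic ring, holds 7 genes in a cluster on chromosome 3, from Gstm5 at chr3:107895821-107898686 to Gstm4 at chr3:108040408-108044894. All 7 were tested: 4 were lower at E18.5, against 5.22% of all genes tested, and 3 did not pass the test. Gstm1 (chr3:108012255-108017973) led the class with 324.2, 333.3 and 366.8 TPM at E16.5, against 210.4, 128.7 and 124.2 TPM at E18.5. Its levels separated by stage (-1.18, standard error 0.21, adjusted p = 0.0132). Gstm7 had 84.9, 69.7 and 91.7 TPM against 47.5, 30.6 and 56.75 TPM, without overlap (-0.89, standard error 0.23, adjusted p = 0.0302). Gstm4 was the most even, with 29.0, 28.0 and 30.5 TPM against 19.3, 16.4 and 17.9 TPM (-0.68, standard error 0.13, adjusted p = 0.0139). Gstm3 varied most between pools, with 31.1, 9.98 and 11.7 TPM against 2.565, 2.24 and 8.83 TPM (-1.77, standard error 0.55, adjusted p = 0.0485). Its stages did not overlap, but E18.5 replicate C came close to the lowest E16.5 library.

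The other mu class genes did not pass the test. Gstm5, a mu class gene best known from brain and testis, had 61.9, 57.5 and 42.9 TPM at E16.5, against 91.3, 94.5 and 58.4 TPM at E18.5, with 1 E18.5 library inside the E16.5 range (log2 fold change 0.57, adjusted p = 0.0911). Gstm2 had 54.5, 61.2 and 26.4 TPM against 34.9, 31.35 and 47.2 TPM, with overlap (-0.25, adjusted p = 0.558). Gstm6 had 6.27, 3.87 and 5.67 TPM against 9.78, 6.295 and 6.07 TPM, with overlap (0.41, adjusted p = 0.246). As a share of the summed mu class, Gstm5 lay between 7.45% and 10.45% at E16.5 and reached 18.3% to 30.5% by E18.5. Gstm1 held 54.8% to 63.7% at E16.5, and 38.9% to 50.6% by E18.5. Some of these values rest on reads that fit more than 1 gene. Of the 50-base stretches of Gstm1, 19.9% occur in other genes, most of them in the pseudogene Gstm2-ps1, which was itself listed at 69.9 TPM at E16.5, against 44.7 TPM at E18.5 and is named here after its values were seen. For Gstm3 the share is 28.8%, and for Gstm4 it is 0%. The exons of Gstm5 overlap those of the antisense gene 4933431E20Rik over 13.9% of their length. That gene was listed at 5.575 and 10.99 TPM, and whether the counting used strand is not given in the sources used here.

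Of the alpha class, the glutathione S-transferases typical of hepatocytes, 2 of 3 genes tested were lower at E18.5 and none was higher. Over all genes tested, 5.22% were lower and 26.0% higher. Gsta3 (chr1:21240589-21265661) had 135.4, 127.6 and 160.9 TPM at E16.5, against 79.1, 67.7 and 109.7 TPM at E18.5, without overlap (-0.74, standard error 0.19, adjusted p = 0.0295). Gsta4 (chr9:78182774-78209349), whose enzyme conjugates hydroxyalkenals from lipid peroxidation, had 108.7, 104 and 101.6 TPM and 58.55, 50.2 and 74.7 TPM, also without overlap (-0.79, standard error 0.16, adjusted p = 0.0156). Neither gene shares a 50-base stretch with another gene. Each kept its share of the alpha class, with Gsta3 at 54.7% to 60.7% and 57.2% to 59.1% of the sum, so the pair fell side by side. Gsta2 had means of 1.75 and 0.611 TPM and did not pass the test (adjusted p = 0.0949), and Gsta1, 97.6% identical to it in coding sequence, stayed under 1 TPM.

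Of the omega class, which reduces disulfides and dehydroascorbate more than it conjugates, Gsto1 had 111.5, 98.6 and 113.1 TPM at E16.5, against 90.1, 67.6 and 89.6 TPM at E18.5. Its stages did not overlap, but its change did not pass the test (-0.39, standard error 0.14, adjusted p = 0.0752), although it did with median-of-ratios scaling (adjusted p = 0.0332), quantile normalization (0.0480) or the replicate block (0.03475). Gsto2, its neighbour (chr19:47865534-47886324), was the 1 Gst gene that was higher at E18.5, at a low level of 0.752, 1.82 and 1.70 TPM against 4.52, 3.66 and 3.65 TPM (1.06, standard error 0.28, adjusted p = 0.0319). With median-of-ratios scaling the call of Gsto2 was lost (0.74, adjusted p = 0.135), and it was made in 4 of the 14 alternative settings in which the gene could be tested. The theta class, which acts on small halogenated molecules, had 3 genes tested, and their changes were smaller than the spread between libraries. Gstt1 ranged widely within both stages, with 33.5, 85.6 and 104 TPM against 95.1, 35.2 and 39.97 TPM (-0.38, standard error 0.51, adjusted p = 0.578). Gstt2 had 16.7, 19.5 and 17.3 TPM against 24.0, 18.9 and 13.9 TPM (0.05, adjusted p = 0.851), and Gstt3 had 7.285, 7.84 and 6.66 TPM against 11.45, 6.47 and 7.05 TPM (0.14, adjusted p = 0.668). Gstk1, the mitochondrial and peroxisomal kappa class gene, had 9.685, 8.55 and 11.9 TPM against 8.16, 5.06 and 12.7 TPM (-0.26, adjusted p = 0.531). In these 4 genes the stages overlapped.

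The Ugt1a locus on chromosome 1 is a single transcription unit with alternative first exons, each with its own promoter and each spliced to the same 4 downstream exons. The first exon encodes the part of the enzyme that binds the molecule to be conjugated, so the choice of first exon sets the substrate. The splice junctions below show how the transcripts of 4 of these genes differ before the shared part and meet in it. Each line gives the last 30 bases of the gene's own first exon in lower case and, in capitals, the first 30 bases of the shared exon at chr1:88215044-88215073, forward strand, from GENCODE vM21 on GRCm38. The first exon of Ugt1a9 ends at chr1:88071649-88071678, that of Ugt1a6b at chr1:88107770-88107799, that of Ugt1a2 at chr1:88201471-88201500 and that of Ugt1a1, the last in the locus, at chr1:88212842-88212871.
Ugt1a9: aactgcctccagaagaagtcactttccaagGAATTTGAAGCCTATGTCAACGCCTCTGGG
Ugt1a6b: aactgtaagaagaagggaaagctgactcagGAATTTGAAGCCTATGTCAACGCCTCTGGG
Ugt1a2: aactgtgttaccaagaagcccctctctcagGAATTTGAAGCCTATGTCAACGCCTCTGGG
Ugt1a1: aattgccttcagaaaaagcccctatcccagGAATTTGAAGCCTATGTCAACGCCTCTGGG
By position, between 39.4% and 49.7% of the exon length of each of the 9 Ugt1a genes is its own, and the rest is shared. Sequence is shared beyond this in Ugt1a6a and Ugt1a6b, where 96% and 79.8% of the 50-base stretches occur in other genes. Coding sequences of this pair are 98.4% identical, so the levels of both are uncertain. A read in the shared exons cannot be assigned to 1 gene, while the TPM were divided by the whole length, so the TPM of a Ugt1a gene understates its level if such reads were set aside.

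Within this locus the order of the transcripts turned. Ugt1a1 (ENSMUSG00000089960.1, chr1:88211959-88218997) encodes the enzyme that conjugates bilirubin. It had 2.52, 1.15 and 1.41 TPM at E16.5, from 48, 20 and 25 reads, and 18.9, 13.55 and 28.1 TPM at E18.5, from 287, 154 and 254 reads. Every E18.5 library lay far above every E16.5 library, and the mean was 11.9-fold higher (log2 fold change 2.95, standard error 0.32, adjusted p = 0.00735). This was the largest rise among the 39 genes tested on the scale of log2(TPM + 1), where Sult3a1, rarer still, had a larger value at a pseudocount of 0.1 (3.98 against 3.51) or with limma voom (4.365 against 3.39). The gene moved from above 41.8% of protein-coding genes to above 66.45%. It remained past the threshold in all 16 alternative settings, with log2 fold changes from 2.57 to 3.51, including median-of-ratios scaling (2.60, adjusted p = 0.0122).

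The other 6 Ugt1a genes tested all had a negative log2 fold change. Ugt1a6b, which conjugates planar phenols, led the locus at E16.5 with 19.5, 15.7 and 22.7 TPM and had 7.18, 3.78 and 12.5 TPM at E18.5, without overlap (-1.31, standard error 0.37, adjusted p = 0.0363). Ugt1a2 had 4.54, 2.49 and 5.44 TPM against 1.455, 0.708 and 0.557 TPM, without overlap (-1.42, standard error 0.34, adjusted p = 0.0241). Ugt1a9 had 3.46, 1.76 and 2.92 TPM against 0.625 and 0.562 TPM in E18.5 replicates B and C and 0 in replicate A (-1.42, standard error 0.35, adjusted p = 0.0252). That 0 stands beside 65, 30 and 51 reads at E16.5. Ugt1a2 and Ugt1a9 passed the filter on low values through their E16.5 libraries, and without that filter the call of Ugt1a2 was lost (adjusted p = 0.0567) while that of Ugt1a9 was kept narrowly (adjusted p = 0.0488). Ugt1a5 (means of 4.91 and 2.25 TPM, adjusted p = 0.0919), Ugt1a6a (3.40 and 1.79 TPM, adjusted p = 0.149) and Ugt1a7c (2.35 and 1.55 TPM, adjusted p = 0.391) did not pass the test. Ugt1a8 and Ugt1a10 stayed under 1 TPM in every library.

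The sum of the 9 genes was 39.1 ± 7.02 TPM (SD, n = 3) at E16.5, against 35.1 ± 13.6 TPM at E18.5, with overlap. Divided by unshared length in place of whole length, Ugt1a1 had 4.12 ± 1.77 TPM at E16.5, against 49.2 ± 18.0 TPM at E18.5, and Ugt1a6b 49.0 ± 9.003 TPM and 19.9 ± 11.2 TPM. Unshared length is counted by position, so sequence that Ugt1a6b has in common with Ugt1a6a still counts as its own. On that scale Ugt1a1 made up 5.82%, 3.70% and 3.25% of the locus in E16.5 replicates A, B and C and 54.7%, 62.8% and 57.5% in E18.5 replicates A, B and C. The share of Ugt1a6b went from 47.1%, 52.4% and 54.6% to 21.7%, 18.25% and 26.7%. Per library, the ratio of Ugt1a1 to Ugt1a6b in the deposited TPM was 0.129, 0.0736 and 0.0620 at E16.5 and 2.63, 3.59 and 2.25 at E18.5. Ugt1a6b was thus ahead in every E16.5 pool and Ugt1a1 in every E18.5 pool. The first exon of Ugt1a1 also overlaps an antisense gene, Gm20528, which is listed at 0 in all 6 libraries. The Ugt1a1 sequence free of every other gene comes to 385 bases.

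**Figure D3:**
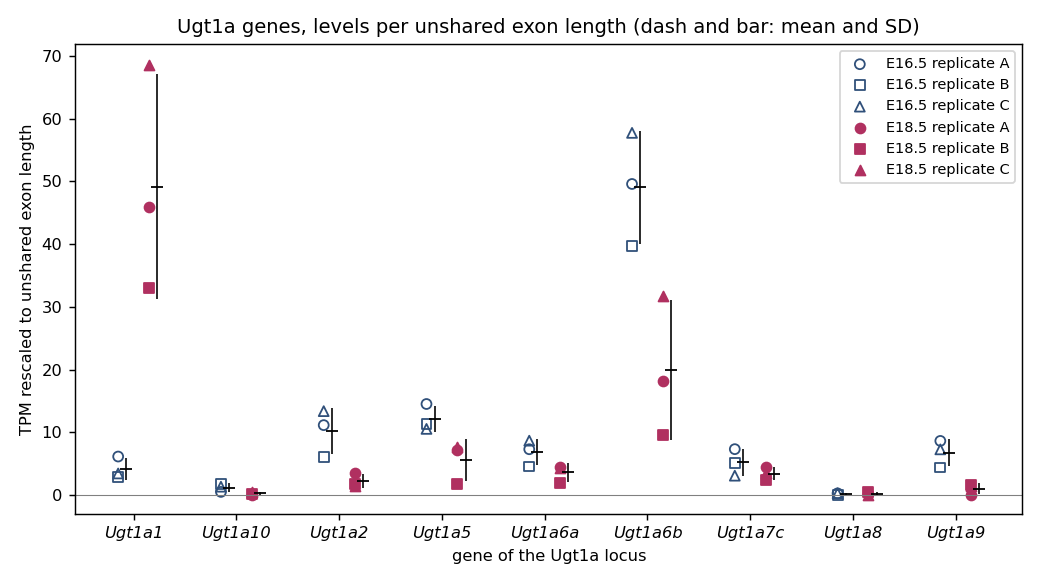
TPM of the 9 Ugt1a genes rescaled to the exon length that each does not share by position within the locus, for E16.5 (open) and E18.5 (filled), with the mean and SD of 3 libraries as dash and bar. Ugt1a6b is highest in the 3 E16.5 libraries (39.8 to 57.75) and Ugt1a1 in the 3 E18.5 libraries (33.0 to 68.5).

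The stretch before the start of Ugt1a1 is shown because this gene alone rose among the 7 genes of the locus tested. It is chr1:88211709-88211958, forward strand, 250 bases from RefSeq on GRCm38.p6. Capitals mark ATTAAC, the reverse complement of GTTAAT, which is a core of the site bound by HNF1 factors and begins 41 bases before the start.
Ugt1a1: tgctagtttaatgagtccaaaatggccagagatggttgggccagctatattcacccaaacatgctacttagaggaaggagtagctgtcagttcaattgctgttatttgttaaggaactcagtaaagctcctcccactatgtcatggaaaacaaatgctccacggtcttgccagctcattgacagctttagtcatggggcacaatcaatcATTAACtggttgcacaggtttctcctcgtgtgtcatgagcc
The same core also occurs before the starts of Ugt1a9, which fell, of Ugt1a6a, which did not pass the test, and of Ugt1a10, which was too low to be tested.

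The Ugt2b genes on chromosome 5, whose enzymes conjugate steroids and bile acids, carried most of the glucuronosyltransferase transcripts, with a sum of 700 ± 35.0 TPM (SD, n = 3) at E16.5, against 385 ± 54.0 TPM at E18.5. Of 5 genes tested, 2 were lower at E18.5 and none was higher, against 5.22% and 26.0% of all genes tested. Ugt2b34 (ENSMUSG00000029260.15, chr5:86889767-86906937) had 366.3, 405.3 and 354.6 TPM at E16.5, against 258.8, 206.3 and 205 TPM at E18.5. Its stages did not overlap (-0.75, standard error 0.13, adjusted p = 0.0132). Ugt2b36 (ENSMUSG00000070704.10, chr5:87065927-87092555) had 117.4, 121.9 and 143.1 TPM at E16.5, against 25.1, 16.25 and 19.1 TPM at E18.5. It was 84.2% lower on average and had the most negative change among the 39 genes tested on the scale of log2(TPM + 1) (-2.62, standard error 0.18, adjusted p = 0.00398). In TPM alone Ugt1a9, a far lower gene, fell by 85.4%. Ugt2b35 (chr5:87000860-87013275), which is 88.3% identical to Ugt2b36 in coding sequence, did not pass the test, with 89.9, 110.8 and 87.2 TPM against 99.8, 79.7 and 72.1 TPM and overlapping stages (-0.20, standard error 0.16, adjusted p = 0.359), but was called lower with median-of-ratios scaling (-0.65, adjusted p = 0.0386). These genes share 0.31% or less of their 50-base stretches with any other gene, so nearly all reads of this length would tell them apart.

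Per library, the ratio of Ugt2b35 to Ugt2b36 was 0.766, 0.909 and 0.609 at E16.5 and 3.98, 4.90 and 3.77 at E18.5, and its ranges were far apart. The sequences before their starts are set side by side for that reason. They come from RefSeq on GRCm38.p6, 250 bases each, that of Ugt2b35 at chr5:87000610-87000859 on the forward strand and that of Ugt2b36 at chr5:87092556-87092805 on the reverse strand. Neither holds GTTAAT or TGAGTCA on either strand, nor the core of the antioxidant response element, TGACNNNGC, so no letters are in capitals.
Ugt2b35: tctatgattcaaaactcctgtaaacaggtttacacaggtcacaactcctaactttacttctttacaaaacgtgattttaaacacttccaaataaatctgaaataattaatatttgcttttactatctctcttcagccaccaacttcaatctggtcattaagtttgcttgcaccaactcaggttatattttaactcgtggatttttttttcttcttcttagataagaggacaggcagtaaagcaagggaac
Ugt2b36: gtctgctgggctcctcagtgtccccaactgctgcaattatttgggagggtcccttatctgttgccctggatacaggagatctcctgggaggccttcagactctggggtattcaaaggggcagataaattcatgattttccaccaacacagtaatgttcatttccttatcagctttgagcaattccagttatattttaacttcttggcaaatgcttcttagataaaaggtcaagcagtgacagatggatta
Of the other Ugt2b genes, Ugt2b5 had 82.85, 88.0 and 102.6 TPM at E16.5, against 52.6, 27.3 and 73.8 TPM at E18.5, without overlap but with too much spread to pass the test (-0.92, standard error 0.33, adjusted p = 0.0695). It shares 41.7% of its 50-base stretches with other genes, mostly with Ugt2b38. Ugt2b1 had 7.57, 8.87 and 12.4 TPM against 4.03, 2.81 and 7.66 TPM, with overlap (-0.92, standard error 0.34, adjusted p = 0.0751). Ugt2b37 and Ugt2b38 had means of 0.258 to 1.08 TPM.

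Sulfotransferases were dominated by 1 gene that did not pass the test. Sult1a1 (ENSMUSG00000030711.15, chr7:126672865-126676432), the phenol sulfotransferase, had 323.3, 327.5 and 447.9 TPM at E16.5, against 311.9, 225.6 and 364.4 TPM at E18.5, with overlap (-0.29, standard error 0.21, adjusted p = 0.308), and ranked above 99.2% and 99.0% of protein-coding genes. Sult1d1, which sulfates catecholamines, had 33.5, 34.9 and 36.45 TPM against 22.2, 10.5 and 37.05 TPM, and E18.5 replicate C was the highest of the 6 libraries (-0.73, standard error 0.39, adjusted p = 0.181). Sult1c2 had 4.55, 3.40 and 0.951 TPM against 4.75, 8.585 and 8.94 TPM, without overlap and short of the threshold (1.17, standard error 0.44, adjusted p = 0.0762). Sult2a8, a sulfotransferase of bile acids in mouse liver, was the 1 Sult gene lower at E18.5, with 4.83, 3.865 and 6.41 TPM against 1.74, 0.715 and 2.62 TPM (-1.21, standard error 0.34, adjusted p = 0.0372). Its stages did not overlap.

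Both Sult genes that were higher at E18.5 were rare. Sult5a1 (chr8:123140192-123158315) had 0.792, 0.783 and 0.851 TPM at E16.5, from 30, 27 and 30 reads, and 5.29, 3.59 and 6.41 TPM at E18.5, from 160, 81 and 115 reads. It was 6.30-fold higher on average and passed the threshold in all 15 alternative settings in which it was tested (1.725, standard error 0.27, adjusted p = 0.0108). Sult3a1 (chr10:33857721-33879532) was listed at 0 in E16.5 replicates B and C and had 3 reads in replicate A, against 21, 5 and 28 reads or 2.66, 0.846 and 5.96 TPM at E18.5. Its fitted change (1.72, standard error 0.50, adjusted p = 0.0400) depends on the pseudocount, and its call was made in 6 of 15 alternative settings. Sult3a1 and Sult5a1 passed the filter on low values through their E18.5 libraries, so they could be called in that direction only. Without the filter Sult5a1 kept its call (adjusted p = 0.0255) and Sult3a1 lost it (adjusted p = 0.0711). Sult1b1 had means of 2.096 and 1.004 TPM (adjusted p = 0.202) and Sult6b1 means of 1.54 and 1.95 TPM (adjusted p = 0.694).

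The 22 genes under a mean of 1 TPM over the 6 libraries were Gsta1 and Gstt4 of the Gst genes, Ugt1a8, Ugt1a10, Ugt2a1, Ugt2a2, Ugt2a3, Ugt2b37 and Ugt2b38 of the Ugt genes, and Sult1c1, Sult1e1, Sult2a1, Sult2a2, Sult2a3, Sult2a4, Sult2a5, Sult2a6, Sult2a7, Sult2b1, Sult3a2, Sult4a1 and Sult6b2 of the Sult genes. None of their values exceeded 3.56 TPM, which was that of Sult2a6 in E18.5 replicate C. Only Ugt2a2 was listed at 0 in every library, where 3 reads would correspond to 0.138 to 0.291 TPM, a limit that covers counting error only. That limit is taken over the whole exon length, of which 94.5% is shared by position with other genes (98.8% in Ugt2a1). Reads there cannot be assigned to 1 gene, so the 0 does not show that the transcript was absent. Sult1e1, the estrogen sulfotransferase, had 0.164 and 0.105 TPM on average. Sult2a1, which sulfates hydroxysteroids, had 1.715, 1.13 and 1.475 TPM at E16.5, against 0.573, 0.575 and 0.241 TPM at E18.5. Sult2b1, the cholesterol sulfotransferase, had 0.354, 0.454 and 0.317 TPM against 0.703, 0.7925 and 0.810 TPM. The main test left out these 22 genes through its filter on low values. Without that filter 10 conjugation genes were past the threshold, all of them genes also called in the main test. Sequence sharing is high in Sult2a, where Sult2a1 and Sult2a5 are 94.9% identical in coding sequence.

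Hepatoblast markers were lower at E18.5 as well. The log2 fold changes of all 14 genes called lower lie within the range of the 11 markers (-2.90 for Afp to -0.62 for Hnf4a), a range wide enough to hold 79.3% of the 1172 genes called lower among all genes tested. E18.5 replicate B, which had the lowest summed hepatoblast level of all libraries, was the lowest E18.5 library for 9 of the 14 genes, and for 21 of the 28 genes with a negative log2 fold change. The share of all genes tested with replicate B lowest was not counted, so these counts are a description only. The part of hepatoblast transcripts in these falls was not tested. Of the 14 genes, Gsta3, Gsta4, Gstm3, Gstm7, Gstp3, Sult2a8 and Ugt1a6b, like the hepatoblast sum, were highest in replicate C among the E18.5 libraries. Gstm1, Gstm4, Gstp1, Ugt1a2, Ugt2b34 and Ugt2b36, in contrast, were highest in replicate A, and Ugt1a9 in replicate B. Of the 4 genes that were higher, Ugt1a1 lay in the upper range of the cholangiocyte markers, between Sctr (2.96) and Krt19 (1.94), and the part of biliary transcripts in its rise was not tested either. Summed cholangiocyte markers were 2317, 2854 and 938.1 TPM at E16.5, against 12420, 14710 and 8649 TPM at E18.5, which are lowest in replicate C at both stages, whereas Ugt1a1 was highest in replicate C at E18.5.

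Of the 18 genes called, 5 did not depend on any 1 library: Gstm1, Ugt1a1, Ugt2b34, Ugt2b36 and Sult5a1 stayed past the threshold whichever library was left out. Without E18.5 replicate A the calls of Gsta4, Gstm4 and Gstp3 were lost by a narrow margin (adjusted p = 0.0620, 0.0511 and 0.0570), which left the calls of the 5 genes named first. Gstp1 lost its call without E16.5 replicate B or C or without E18.5 replicate A or B, at an adjusted p of at most 0.0558, Ugt1a9 without E16.5 replicate A or C or E18.5 replicate A or B (at most 0.0722), and Gstm7 without the same 4 libraries (at most 0.0859). The calls of Gsta3 (at most 0.0926), Gstm3 (at most 0.141), Sult2a8 (at most 0.109) and Ugt1a6b (at most 0.105) were lost without any 1 library other than E18.5 replicate C. Ugt1a2 kept its call only without E16.5 replicate B (otherwise at most 0.0708), Sult3a1 only without E18.5 replicate B (otherwise at most 0.102), and Gsto2 in none of the 6 fits (0.05055 to 0.0978). Every one of the 18 genes kept its direction in those fits.

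The letters before the start sites were searched for 3 motifs in the 250 bases that RefSeq gives for 54 of the 61 genes, on both strands. TGAGTCA has the reverse complement TGACTCA, which can open a TGACNNNGC, so these motifs may overlap. GTTAAT was found before 13 of the 54 genes, or in 20.3% of their 64 entries, against 6.43% of 32851 mouse promoters of the same length. Of these, Ugt1a1 was higher and Gsta3 and Ugt1a9 were lower at E18.5. TGAGTCA was found in 10.9% of the entries against 4.46% of promoters, in Gstp1 and Gstp2 among others. The antioxidant core TGACNNNGC was found before Gsta3, Gstm5 and Gstm7, in 4.69% of the entries against 10.2% of promoters. Neighbouring genes of 1 cluster are copies of one another, so these entries are not independent, and a match in letters is a description and not a site.

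The enzymes that supply the co-substrates did not move with the transferases as one. Over 7 lists of other genes of these pathways, 99 genes were tested, of which 21 were higher and 12 were lower at E18.5, where 26.0% and 5.22% of all genes tested were. With median-of-ratios scaling the split was 6 higher and 22 lower, against 6.80% and 10.4% of all genes tested. The counts of higher genes were thus near or below the background. Those of lower genes, 12 and 22 of the 99, were above the 5.22% and 10.4% of all genes tested. Counts of single lists, which are small, are given as a description beside the same shares. Of 12 genes for glutathione supply, 3 were higher, a share near the 26.0% of all genes tested, and 1 was lower (median log2 fold change 0.12). Gclc, the catalytic subunit of the rate-limiting ligase, rose from 100.5 ± 7.32 TPM (SD, n = 3) to 182 ± 28.4 TPM (0.84, adjusted p = 0.0120), while its modifier subunit gene Gclm had 83.6 and 93.9 TPM (0.16, adjusted p = 0.328). Gss, which adds the last amino acid of glutathione, fell from 33.3 ± 2.04 to 13.45 ± 1.17 TPM (-1.25, adjusted p = 0.00735). The glutathione hydrolase gene Ggt5 (1.05) and the oxoprolinase gene Oplah (0.92) were higher as well. Under median-of-ratios scaling the rises of Gclc (0.39, adjusted p = 0.0675) and Ggt5 (0.78, adjusted p = 0.128) were lost.

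Of 10 genes for UDP-glucuronate supply, 1 was higher and 3 were lower, against 26.0% and 5.22% of all genes tested (median -0.04). Neither Ugp2, whose enzyme makes UDP-glucose, nor Ugdh, whose enzyme makes UDP-glucuronic acid from it, passed the threshold. Ugp2 had 191 and 144 TPM without overlap (-0.42, adjusted p = 0.0889), but was called lower with median-of-ratios scaling (-0.88, adjusted p = 0.0460). Ugdh had 23.9 and 27.8 TPM (0.21, adjusted p = 0.246). The phosphoglucomutase gene Pgm1 (-0.80) fell. So did the solute carrier genes Slc35d2 (-0.76) and Slc35b1 (-0.58), whose proteins are transporters and do not make UDP-glucuronic acid. The 1 higher gene, Ugcg, rose by 0.45, a rise that was lost with median-of-ratios scaling (0.01, adjusted p = 0.939). Its enzyme adds glucose from UDP-glucose to ceramide and does not make UDP-glucuronic acid. Of 10 genes for PAPS supply, 5 were higher and 1 was lower, against the same 26.0% and 5.22% (median 0.33). Papss1, which makes PAPS, rose from 66.25 ± 15.3 to 120 ± 20.4 TPM (0.86, adjusted p = 0.0232). Its paralogue Papss2 had 31.3 and 21.6 TPM (-0.68, adjusted p = 0.216). Slc35b2 (0.49) and Slc35b3 (0.82), which carry PAPS into the Golgi, rose too, as did the sulfate transporter gene Slc26a2 (1.04) and the phosphatase gene Impad1 (0.78), while Slc26a1, the sulfate transporter of the hepatocyte membrane, fell (-0.81). With median-of-ratios scaling, Slc26a2 alone of these 5 rises was kept (0.61, adjusted p = 0.0473).

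Of 24 other conjugation enzyme genes tested, 2 were higher and 3 were lower, against 26.0% and 5.22% of all genes tested (median -0.06). Ugt8a, which adds galactose to ceramide, rose from 4.36 ± 2.39 to 28.9 ± 6.61 TPM (2.57, adjusted p = 0.00990). Ugt3a1 fell from 11.8 ± 2.55 to 2.004 ± 0.97 TPM (-2.12, adjusted p = 0.00946), and the glutathione enzymes Mgst3 (-0.91) and Gstz1 (-0.64) fell as well. Among 10 genes that carry conjugates or their precursors across the membrane, 4 were higher and 2 were lower (median 0.28). The shares of all genes tested were again 26.0% and 5.22%. Abcc3 and Abcc4, exporters of the basolateral membrane, rose by 0.85 and 1.03, and the low uptake gene Slco1a1 was higher (1.18). Abcc6 (-1.53) and Abcg2 (-0.50) fell. With median-of-ratios scaling the rises of Abcc3 (0.44, adjusted p = 0.0980) and Slco1a1 (0.97, adjusted p = 0.0678) were lost.

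Among 18 receptors and transcription factors that control these enzymes, 4 were higher and 1 was lower, shares near the 26.0% and 5.22% of all genes tested (median 0.15). Foxa2 (1.04), Mafk (0.80), Nfe2l1 (0.69) and Arnt (0.54) rose, and Hnf4a fell (-0.62, 251 to 165 TPM). None of the 6 ligand-activated receptors of the list that were tested passed the threshold, and they are named after their values were seen. Nr1i2 had 46.2 ± 0.80 and 45.96 ± 8.185 TPM (adjusted p = 0.918), Ahr 55.3 ± 2.90 and 55.95 ± 3.895 TPM (adjusted p = 0.920), Rxra 63.8 ± 2.96 and 85.4 ± 12.7 TPM (adjusted p = 0.0572), Ppara 88.98 ± 8.66 and 60.9 ± 21.99 TPM (adjusted p = 0.115), Nr1h4 22.4 ± 2.095 and 31.2 ± 8.88 TPM (adjusted p = 0.163) and Esr1 2.67 ± 0.61 and 1.975 ± 0.81 TPM (adjusted p = 0.430). Nr1i3 was under 1 TPM on average and was not tested. The regulator gene Nfe2l2 had 61.0 ± 4.55 and 53.3 ± 2.77 TPM, and Keap1, whose protein holds NFE2L2 back, had 23.0 ± 1.20 and 22.55 ± 3.71 TPM, and neither passed the test (adjusted p = 0.210 and 0.851). Of 15 genes induced through NFE2L2 together with its partners, 2 were higher and 1 was lower, against the same 26.0% and 5.22% (median 0.15). Ephx1, the microsomal epoxide hydrolase of phase I metabolism, rose from 45.4 ± 13.3 to 177 ± 20.9 TPM (1.98, adjusted p = 0.00812) and kept its call in all 16 alternative settings. Me1 rose by 0.97 and Srxn1 fell (-0.90). With median-of-ratios scaling, Foxa2 (0.60, adjusted p = 0.0334) and Ephx1 (1.53, adjusted p = 0.0107) kept their rises, whereas Arnt (0.10), Nfe2l1 (0.24), Mafk (0.35) and Me1 (0.53) did not pass (adjusted p = 0.453, 0.0883, 0.343 and 0.106).

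**Figure D4:**
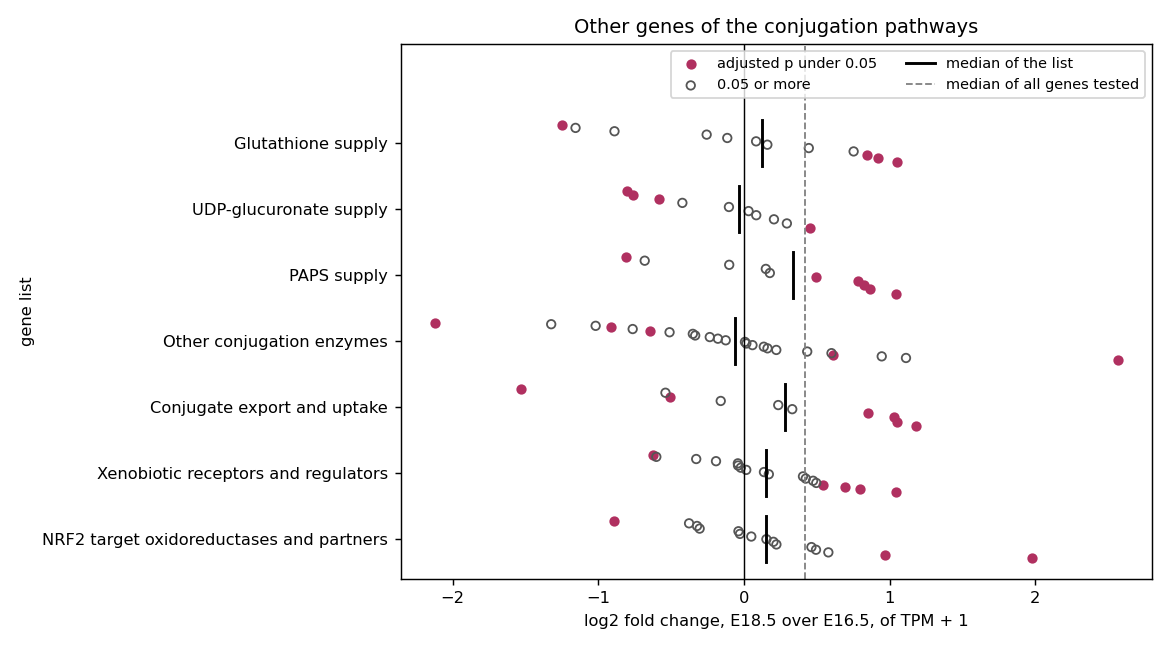
Log2 fold change (E18.5 over E16.5, of TPM + 1) of the 99 tested genes in 7 lists of co-substrate supply, other conjugation, transport and control, with filled points for an adjusted p under 0.05. The medians of the lists (black bars) lie between -0.06 and 0.33, all left of the median of all genes tested (dashed, 0.42).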

How the data were processed

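RNA from GFP-positive embryonic liver cells was sequenced with a strand-specific total RNA kit in 6 libraries, 3 per stage, grouped by the sample labels. The authors trimmed the reads, aligned them to the GRCm38 genome (HISAT2 2.1.0), obtained gene counts with HTSeq 0.5.4p3 and the vM15 annotation, and deposited TPM. The submitters' notes also name FastQC 0.11.7 and Bowtie. Whether the counting used strand is not given in the sources used here. Symbols, exon lengths and positions were taken from GENCODE vM21, which holds 52403 of the 52550 identifiers. Multiplying TPM by exon length and dividing by the value of 1 read returned whole reads (within 0.01 of a whole number) for 100% of nonzero values of genes with the same identifier version, and reads were recovered for 55 of the 61 genes (not Gsto1, Gsto2, Gstp1, Gstp2, Gstp3 and Sult4a1).

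Differences between the stages were tested in R 4.3.3 with limma 3.58.1, by lmFit and a trended eBayes on log2(TPM + 1) of every gene whose mean reached 1 TPM, adjusted by the Benjamini-Hochberg method with a threshold of 0.05. Fold changes on this scale understate the change of low genes. Exact permutation tests, sequence sharing, identity and motif counts were computed in Python 3.11.15 with scipy 1.17.1 and Biopython 1.88. The fit was tested on simulated data. Genes that reach a mean of 5 TPM in either stage or past the threshold are given with each library's value, other tested genes by their means, and list genes by the largest changes past the threshold plus the enzymes that make the co-substrates. The members and lists were chosen with earlier results of these data known, and the pairs, printed sequences and motif TGAGTCA after values or sequences had been seen. In all, 16 alternatives were tried. Some genes of the lists are counted but not reported here by name. Microscopy and simulations were not analysed here.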

Additional observations from a re-analysis of the deposited data

How the results depend on the processing

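Of 1191 values of 76 named genes under the alternatives, 961 kept their direction and their side of the threshold, 196 lost and 18 gained a call, and 16 turned in sign, all in genes that were not past the threshold. The count of conjugation genes past the threshold (18) was 10 without a filter on low values, where more genes are tested, 17 with the replicate block, and 12 to 18 in the other fits on all 6 libraries. Leaving out 1 library gave 5 (without E18.5 replicate A) to 19 (without E18.5 replicate C), with 9 without E16.5 replicate A, 11 without replicate B, 8 without replicate C and 9 without E18.5 replicate B. In the pathway lists the count (33) ranged from 6 without E18.5 replicate A to 35 without E18.5 replicate C, with 21 without E16.5 replicate A and 18 without E18.5 replicate B. Over all genes tested, 7000 were past the threshold, and 1148 without E18.5 replicate A. Each of these fits has 1 library fewer, yet their counts differ widely, and a cause for this was not tested. Whether the replicate letters pair the libraries is not known. Deviations from the stage means correlated at -0.042, 0.081 and 0.14 for A, B and C, against -0.146 to 0.084 for unlike letters. Deviations from means of 3 libraries cannot exclude a pairing.

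Signs turned with median-of-ratios scaling for Gstt2 (-0.38), Gstt3 (-0.26), Sult6b1 (-0.1055), Gclm (-0.29) and Ugdh (-0.23), with quantile normalization for Gstm6 (-0.030), Gstt2 (-0.3355), Gstt3 (-0.30), Sult6b1 (-0.206), Gclm (-0.053) and Ugdh (-0.16), with limma voom on recovered reads for Gstt2 (-0.043), without E18.5 replicate A for Gstt2 (-0.12) and Gstt3 (-0.089), and without E18.5 replicate B for Gstk1 (0.035) and Sult6b1 (-0.074). With 1 library left out, Gstk1 ranged from -0.56 to 0.035, Gstt2 from -0.12 to 0.25, Gstt3 from -0.089 to 0.28 and Sult6b1 from -0.074 to 0.38. The cause was not tested. Depth limits the genes under 1 TPM, and shared sequence limits Gstp1, Gstp2, Gstm3, Ugt2b5, Ugt2a1, Ugt2a2 and the Ugt1a genes.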
